A study of Mus musculus with 36 samples.

Results

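After 3 days of tetracycline, Erbb2-transfected mouse NIH3T3 fibroblasts were compared with untreated cells of the same line on cDNA arrays with 2 dyes. The 3-day group was chosen by its sample title and held 4 of the 36 arrays of the series. In a tet-off system, tetracycline stops transcription of the transgene, here Erbb2, so the comparison concerns the state of the cells after the receptor's gene was switched off. By the labels' source names, the treated or untreated cells under test were in channel 1, and untreated Erbb2-transfected NIH3T3 cells were in channel 2 on every array; the latter is called the reference channel. Cells of every group, the untreated ones included, therefore carried the transgene. Channel 1 was labelled with Cy5 in replicates 1 and 2 and with Cy3 in replicates 3 and 4. The labels give neither the promoter of the transgene, nor the number of clones, nor whether replicates were separate cultures. Unless another model is named, the p-values measure the spread between arrays of 1 group and dye, which may therefore be technical. They do not measure the disagreement between the 2 dyes within a group. The labels' protocols speak of organs and of a reference made from control animals, which goes against the named sources; the sources were followed.

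NIH3T3 is an immortalised line of mouse embryo fibroblasts that can be transformed by a single active oncogene. Erbb2 is a growth factor receptor with kinase activity and no known ligand of its own; it pairs with its relatives Egfr and Erbb3 and signals through the ERK and AKT pathways. Active ERK induces immediate early genes such as Egr1, whereas fibroblasts that stop growing raise growth arrest genes such as Gas1 and deposit collagens, decorin and the enzymes that cross-link them.

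All values are log2 ratios of the 2 channels, centred on the median of their array. On the Cy3 arrays the ratio was multiplied by -1, called turned here, which makes values above 0 mean a higher level in channel 1. This assumes that the deposited ratio is Cy5 over Cy3, which no file states. With the opposite ratio every "higher" below becomes "lower". If the ratio is channel 1 over channel 2 on every array, the deposited sign gives the direction and the turned sign of the Cy3 arrays is wrong. At 24 h, Egr1 was at -4.24 and -3.14 on the Cy5 arrays and at -3.60 and -3.72 on the turned Cy3 arrays. Its deposited sign there thus differed between the dyes, as did those of Ppia, Postn and S100a4. Of all genes with values on the 4 arrays of 24 h, 17.4% had 1 sign turned and 13.9% as deposited. Which ratio was deposited was not tested. Untreated replicates 1 and 2 held the same values shifted by 0.771 (SD of the shift 0.0005 over 19840 values) and entered as 1 array, so there were 3 distinct untreated arrays. The 3-day arrays stood apart from the others. They had 17508 to 18651 features with a value, against 19297 to 19348 on the 24 h arrays. Their log2 ratios had interquartile ranges of 0.752, 0.984, 1.112 and 1.419, against 0.426 to 0.451 at 24 h, and the variance estimated for the group was 4.162 times that of an average array of the model.

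The 2 dye orientations opposed each other at 3 days. Over 7727 genes, the Pearson correlation of a Cy5 array with a turned Cy3 array ran from -0.21 to -0.12, while the Cy5 pair correlated at 0.16 and the Cy3 pair at 0.25. These correlations are across genes, which are not independent replicates. Of 7861 genes with a value on all 4 arrays, 828 (10.5%) had 1 sign on the 4 turned arrays, 417 above 0 (5.3%) and 411 below (5.23%). With the deposited sign kept, 30.0% had 1 sign. At 24 h the shares were 17.4% turned and 13.9% as deposited. Among the untreated arrays, correlations between the 2 orientations were -0.44 and -0.34. Because of this opposition the direction is not settled for most genes, and the genes described below are weighed by whether both orientations gave the same side.

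**Figure D1:**
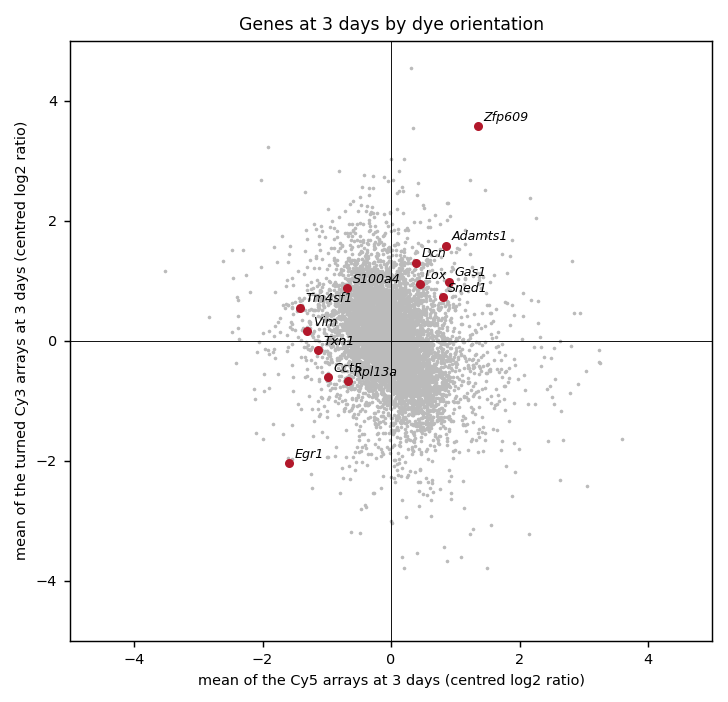
Each grey point is a gene with values on the 4 arrays of 3 days. The horizontal axis is the mean of the 2 Cy5 arrays and the vertical axis the mean of the 2 turned Cy3 arrays, both as centred log2 ratios. The genes named in the next sentence are marked in red. The cloud runs from upper left to lower right, with Gas1, Sned1, Lox, Dcn, Adamts1 and Zfp609 above 0 in both orientations, Egr1, Rpl13a, Txn1 and Cct5 below 0 in both, and S100a4, Tm4sf1 and Vim with opposite signs.

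The transgene could not be checked, because no probe of the array is named Erbb2. Of 18 listed receptors, ligands and adaptors of the family, 10 were named on the array and 7 could be tested; none passed against the untreated arrays (limma, smallest adjusted p 0.347 for Hbegf and Shc1). Egfr, the partner receptor, was at -0.22 and -0.39 on the Cy5 arrays and at 1.06 and -0.11 on the Cy3 arrays (mean of 5 probes), against -0.12 to -0.02 in the untreated arrays, and only 1 of the 4 means was above 0. Its probes disagreed: one was above 0 on each array, at 0.37, 0.87, 2.13 and 1.42 (difference 1.43, limma adjusted p 0.0931 over all probes), while the differences of the others ran from -0.76 to 0.33. Hbegf, a ligand of the family, was at -0.45 and -0.22 on the Cy5 arrays and at 2.84 and 0.99 on the Cy3 arrays. Shc1, an adaptor that links the receptors to Ras, was above 0 on the 4 arrays, at 0.01, 0.52, 0.17 and 0.95, but its 2 probes differed in sign on 2 of them. Erbb3 and Erbb4 gave no test: Erbb3 had too few values and Erbb4 was not named.

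Against the untreated arrays few genes passed: Gas1 rose and Rpl13a fell on the 4 arrays, and for most of the others an untreated array lay far from 0. In a limma model with a mean for each group and dye, 10 of 8969 genes passed at an adjusted p under 0.05 (0.111%), 8 higher (0.0892%) and 2 lower (0.0223%); 674 genes had an unadjusted p under 0.05. Of the 10, 5 had 4 arrays of 3 days outside the range of the untreated arrays. That compares with 155 of 7801 genes above the untreated range (1.99%) and 172 below it (2.2%) among all genes tested with values on the 4 arrays. The count moved with single arrays: it was 2 without 3d replicate 1, 3 without replicate 2, 171 without replicate 3 and 49 without replicate 4. It was 32, 39 and 18 without untreated replicates 1, 3 and 4. Untreated replicate 1 was the only distinct Cy5 array of its group, so every fit without it used 1 dye effect common to all groups. The loss of that array and the change of model cannot be told apart. With all arrays, the common dye effect gave 0 calls (322 genes at an unadjusted p under 0.05). With the deposited sign kept, the count was 433, 188 higher and 245 lower, of which 7 were among the 10.

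Gas1, a membrane-anchored protein that rises when fibroblasts leave the cell cycle, rose. It was at 0.71, 1.09, 0.90 and 1.07 on the arrays of 3 days, against -0.22, 0.11 and 0.15 on the untreated arrays and 0.20 to 0.31 at 24 h. The 4 arrays of 3 days lay above all arrays of both other groups, and both dyes gave the same side. Gas1 was higher than untreated by 0.99 (SE 0.17, limma adjusted p 0.0381) and higher than the reference channel by 0.94 (adjusted p 0.0286). Its difference from 24 h, 0.70, did not pass (adjusted p 0.142). The call against untreated was lost without 3d replicate 1 (adjusted p 0.141), 3d replicate 2 (0.418) or untreated replicate 1 (0.208, with the common dye effect). With the deposited sign kept, the value against the reference channel was -0.04.

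Rpl13a, a protein of the large ribosomal subunit, fell. It was at -0.85, -0.48, -0.57 and -0.79 on the arrays of 3 days and at 0.08, 0.46 and 0.49 on the untreated arrays, with no overlap between the groups. The difference was -0.95 (SE 0.16, limma adjusted p 0.0307). These are means of 2 probes, which disagreed on 1 array: at 3d replicate 3 one probe read 0.03 and the other -1.16. Its difference from 24 h, -0.72, did not pass (limma adjusted p 0.075). Against the reference channel the 2 probes differed by -0.55 and -0.79 (adjusted p 0.17 and 0.134 over all probes). The call against untreated was lost without 3d replicate 1 (adjusted p 0.271) or replicate 2 (0.151), and with the deposited sign kept the difference from untreated was 0.20.

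For most of the remaining higher calls, the values far from 0 were those of the untreated arrays. Kctd2, an adaptor of ubiquitin ligases, was at 0.18, 0.40, 0.64 and 0.35 at 3 days and at 0.06 to 0.34 on 3 of the 4 arrays of 24 h, but at -2.33 and -1.32 on the 2 untreated arrays with a value (difference 2.22, SE 0.28, limma adjusted p 0.0106). Myl10, a myosin light chain, was at 0.91, 0.63, -0.07 and -0.05, against -2.80 and -0.81 on 2 untreated arrays (difference 2.16, adjusted p 0.016). Fbxw24, an F-box protein, ran from -0.76 to 0.28 at 3 days, against -2.25 and -0.92 (difference 1.45, adjusted p 0.0307). Kctd2, Myl10 and Fbxw24 did not overlap the untreated arrays, yet against the reference channel their adjusted p was 0.728, 0.809 and 0.953. Hnf4g, a nuclear receptor, and Arl9, a small GTPase of the ARF family, were low only on untreated replicate 1, at -1.93 and -2.0. Their other untreated values, 0.36 and 0.40 for Hnf4g and 0.19 and 0.14 for Arl9, lay among the 3-day values. In the fit without that array, which used the common dye effect, their adjusted p was 0.754 and 0.901. Asic1, a proton-gated ion channel, was at -0.04 and -0.31 on the Cy5 arrays and at 1.06 and 1.18 on the Cy3 arrays, so the 2 orientations did not share a sign. Without untreated replicate 1, again with the common dye effect, the difference was 1.03 for Myl10 (limma adjusted p 0.293) and 0.75 for Fbxw24 (adjusted p 0.361). Without 3d replicate 1 or 2, the 6 genes of this paragraph all missed the threshold, with adjusted p from 0.0653 (Kctd2) to 0.288 (Asic1 and Arl9).

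Against the reference channel, 4 of 9098 genes passed (0.044%), 2 higher (0.022%; Gas1 and Zfp609) and 2 lower (0.022%; Egr1 and Prox2); 756 had an unadjusted p under 0.05. The count was 5 without 3d replicate 1 or 2, 276 without replicate 3 and 57 without replicate 4. Zfp609, a zinc finger protein, had the smallest adjusted p of the 4. It was at 0.94 and 1.76 on the Cy5 arrays and at 4.01 and 3.15 on the turned Cy3 arrays, against 0.56 to 0.61 on the 4 arrays of 24 h. Each 3-day value was above each 24 h value. Its difference from the reference channel was 2.47 (limma adjusted p 0.00117), from 24 h 1.89 (adjusted p 0.0167) and from untreated 1.94 (adjusted p 0.0307). The untreated values were 3.27 and -2.22 on the 2 arrays that had one, on either side of the 3-day mean. On the Cy5 arrays alone the difference from untreated was -1.92, and the call against untreated was lost without 3d replicate 1 (adjusted p 0.08) or replicate 2 (0.225). Prox2, a homeobox factor, passed as lower against the reference channel (difference -2.06, limma adjusted p 0.0286) and against untreated (difference -2.32, adjusted p 0.0207). Without untreated replicate 1, with the common dye effect, its adjusted p against untreated was 0.691. Its 3 values at 3 days were -0.05, 0.49 and -4.34, and only 1 of them was far below 0.

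**Figure D2:**
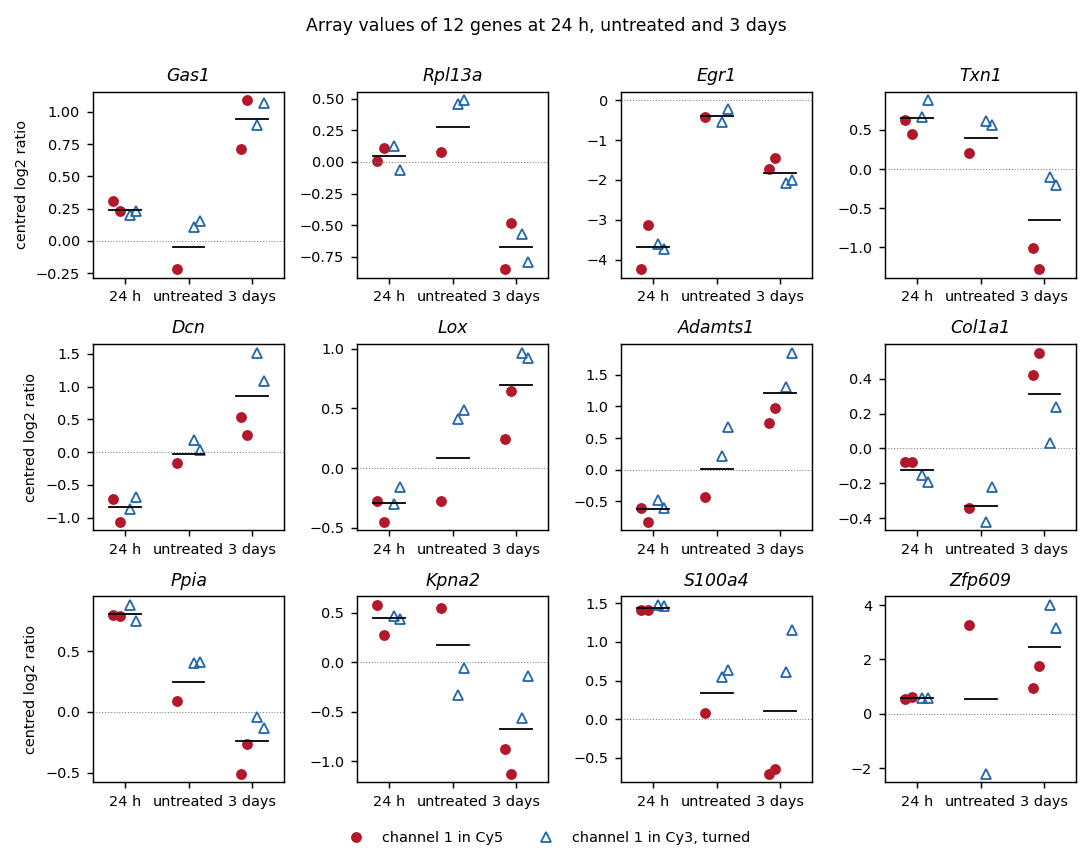
Centred log2 ratios of 12 genes on each array of 24 h, untreated and 3 days; red circles are arrays with channel 1 in Cy5, blue open triangles turned arrays with channel 1 in Cy3, and the black line is the mean over both dyes. Gas1 at 3 days sits between 0.71 and 1.09 and Rpl13a between -0.85 and -0.48, apart from the untreated arrays, while the 3-day arrays of S100a4 split by dye.

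Several genes that did not pass had all 4 arrays on 1 side of the untreated range. Sned1, a secreted matrix protein, was at 0.67, 0.94, 0.77 and 0.67, against -0.04, -0.05 and -0.32 (difference 0.88, limma adjusted p 0.0533). Esd, a formylglutathione hydrolase, was at -0.74, -0.69, -0.69 and -1.56, against -0.12, 0.68 and 0.57 (difference -1.17, adjusted p 0.0714). Both kept their side in each orientation. Nme2, a nucleoside diphosphate kinase, ran from -1.10 to -0.22, against 0.01 to 0.55 (difference -0.88, adjusted p 0.141). Cct5, a subunit of the chaperonin that folds actin and tubulin, ran from -1.04 to -0.60, against 0.11 to 0.46 (difference -1.05, adjusted p 0.141). Txn1, described below, ran from -1.28 to -0.10, against 0.20 to 0.61 (difference -1.04, adjusted p 0.0684). With the deposited sign kept, the differences were -0.03 for Sned1, 0.58 for Esd, 0.14 for Nme2 and -0.04 for Cct5. Of the 66 genes followed through the alternatives that did not pass against untreated, 36 took the other sign in that reading.

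The arrays of 24 h were the last treated arrays before 3 days and were far tighter. Between 24 h and 3 days, 10 of 8922 genes passed (0.112%), 5 higher (0.056%) and 5 lower (0.056%); all 9 with values on the 8 arrays, and Fabp5 on 7, had no overlap between the groups, against 127 of 7721 genes above (1.64%) and 148 below (1.92%). The count was 0 (393 at an unadjusted p under 0.05), 3, 229 and 52 without 3d replicates 1 to 4 and 19, 17, 6 and 17 without 24h replicates 1 to 4. Each gene named next lost its call without 3d replicate 1 or without 3d replicate 2, except Fabp5, which could not be tested without either. Without 24h replicate 3, calls were also lost for Adamts1, Dcn, Egr1 and S100a4 (adjusted p 0.0562) and for Lox and Fabp5 (0.062).

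Egr1, a zinc finger factor induced within minutes of ERK activation, was below the reference channel at 3 days, by less than at 24 h. It was at -1.72, -1.45, -2.08 and -2.01 at 3 days, against -4.24, -3.14, -3.60 and -3.72 at 24 h and -0.43, -0.56 and -0.22 on the untreated arrays. The 3 groups did not overlap, and both orientations gave the same order. Egr1 was higher at 3 days than at 24 h by 1.86 (limma adjusted p 0.0277) and differed from the reference channel by -1.82 (adjusted p 0.0288). The call against the reference channel was lost without 3d replicate 1 (adjusted p 0.324) or replicate 2 (0.31). Its difference from the untreated arrays was -1.41 (SE 0.34), which did not pass (adjusted p 0.162). With the deposited sign kept, its value was 0.23 against the reference channel and 0.25 against untreated.

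The other 4 genes that were higher at 3 days than at 24 h included 3 that act in the extracellular matrix. Dcn, decorin, a proteoglycan that binds collagen fibrils, was at 0.53, 0.26, 1.52 and 1.09 at 3 days and at -0.72, -1.06, -0.86 and -0.68 at 24 h, a difference of 1.68 (limma adjusted p 0.0253). Adamts1, a secreted metalloprotease that cleaves proteoglycans, was at 0.73, 0.98, 1.31 and 1.85, against -0.60, -0.82, -0.48 and -0.60, a difference of 1.84 (adjusted p 0.0266). Lox, the oxidase that starts cross-linking of collagen and elastin, was at 0.24, 0.65, 0.97 and 0.92, against -0.28, -0.45, -0.30 and -0.16, a difference of 0.99 (adjusted p 0.0266). For all 3 the sign changed between the times, from below the reference to above it, on each array. The 3 probes of Lox disagreed: 2 differed from 24 h by 1.39 and 1.94 and the other by -0.34. Against the untreated arrays none of the 3 passed (adjusted p 0.386 for Dcn, 0.277 for Adamts1 and 0.308 for Lox), and with the deposited sign kept their differences from 24 h were -0.40, -0.28 and -0.18. The remaining higher gene was Zfp609.

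The 5 genes that were lower at 3 days than at 24 h had been above the reference at 24 h. Txn1, thioredoxin, which reduces protein disulfides, was at -1.01, -1.28, -0.10 and -0.21 at 3 days and at 0.63, 0.45, 0.66 and 0.88 at 24 h (difference -1.30, limma adjusted p 0.0167). Ppia, cyclophilin A, was at -0.51, -0.26, -0.04 and -0.13, against 0.80, 0.79, 0.88 and 0.75 (difference -1.03, adjusted p 0.0167). Kpna2, an importin that carries cargo into the nucleus, was at -0.88, -1.13, -0.56 and -0.14, against 0.58, 0.28, 0.47 and 0.44 (difference -1.12, adjusted p 0.0167). Txn1, Ppia and Kpna2 were below 0 on the 4 arrays of 3 days and above 0 on the 4 arrays of 24 h. Fabp5, a fatty acid-binding protein, had 3 values at 3 days, -0.18, -1.38 and -2.22, against 0.06 to 0.80 at 24 h (difference -1.88, adjusted p 0.0356). S100a4, a calcium-binding protein linked to cell motility, was at -0.71 and -0.65 on the Cy5 arrays and at 0.61 and 1.15 on the Cy3 arrays, against 1.41 to 1.48 on the 4 arrays of 24 h (difference -1.34, adjusted p 0.0266). It was lower than at 24 h in both orientations, but its sign at 3 days differed between them.

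The medians of the extracellular matrix genes lay on the higher side in both orientations. Of 49 listed genes 40 were named on the array and 39 were tested. None passed against untreated (smallest limma adjusted p 0.186), and their median difference was 0.10, against -0.01 over all genes. Of the 39 differences, 24 were above 0, against 4370 of 8969 over all genes. Thbs1 and Col12a1 had the largest falls, -2.51 and -1.98 (limma adjusted p 0.832 and 0.529). The medians of the list on the 4 arrays of 3 days were 0.13, 0.16, 0.26 and 0.24. The untreated arrays had medians of -0.06, 0.03 and 0.02 and the 24 h arrays of -0.15 to -0.02, so each array of 3 days exceeded each array of both groups. Of 34 genes with values on the 4 arrays, 5 lay above the untreated range and 0 below, or 14.7% against 1.99% of all genes. Leaving out any array of 3 days or untreated left 5 to 9 above, with 1 gene below where untreated replicate 1 was left out and 0 otherwise; over all genes these shares were then 3.00% to 8.38% above. The median was below 0 with the deposited sign kept (-0.12) and without centring (-0.06, where the median of all genes was -0.17).

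The 5 genes above the untreated range, named after their values were seen, were collagens and small matrix proteins. Col1a1, the main chain of fibrillar collagen, was at 0.42, 0.55, 0.03 and 0.24, against -0.34, -0.42 and -0.22 (difference 0.64, SE 0.16, limma adjusted p 0.186). Its 2 probes opposed each other by dye: one read 0.61, 1.15, -0.35 and -0.64 and the other 0.23, -0.04, 0.41 and 1.13. Col6a1, a chain of microfibrillar collagen, was at 0.32, 0.63, 0.80 and 1.08, against -0.06, -0.56 and -0.14 (difference 0.92, adjusted p 0.302), and rested on 1 probe. Col4a1, of basement membrane collagen, was at 0.55, 0.18, 0.78 and 0.11, against a highest untreated value of 0.08 (adjusted p 0.763). Fbln5, which organises elastic fibres, was at 0.53, 0.14, 0.85 and 0.52, against -0.14 to -0.01 (adjusted p 0.577). Dcn, whose values are given above, was the fifth.

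Other matrix genes, such as the 4 that follow, overlapped the untreated range. Sparc, a collagen-binding protein, was at 0.15 and -0.02 on the Cy5 arrays and at 0.90 and 1.18 on the Cy3 arrays (difference 0.68, limma adjusted p 0.194). Col3a1 was at 0.03, 0.62, 0.13 and -0.67 (difference 0.05, adjusted p 0.99). Postn, periostin, was at -0.57, -0.38, 0.91 and 0.17, close to the untreated arrays (difference 0.10), while at 24 h it had been at -2.18 to -1.53 (difference from 24 h 1.83, adjusted p 0.0675). Fn1, fibronectin, was at -0.66, -0.60, -0.05 and 0.35 (difference -0.33, adjusted p 0.686).

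**Figure D3:**
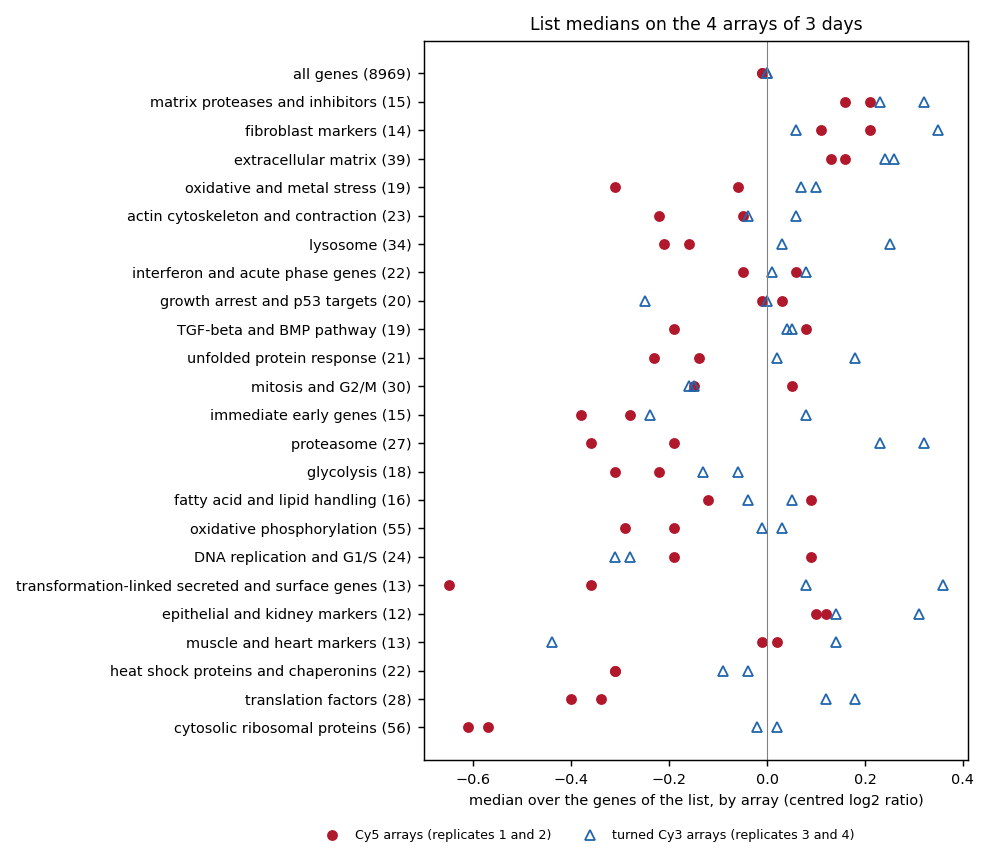
Median centred log2 ratio over the tested genes of each list (number in brackets) on each of the 4 arrays of 3 days; red circles are Cy5 arrays and blue open triangles turned Cy3 arrays, for lists with at least 10 genes measured on the 4 arrays. The extracellular matrix medians (0.13, 0.16, 0.26, 0.24) are above 0 on each array, while the ribosomal protein medians are at -0.57 and -0.61 on the Cy5 arrays and at 0.02 and -0.02 on the Cy3 arrays.

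Of 15 markers of fibroblasts, the labelled cell type, 14 were named on the array and tested; 0 passed against untreated, their median difference was 0.13 (-0.23 with the deposited sign kept), and 3 of 12 with values on the 4 arrays lay above the untreated range (25% against 1.99% of all genes) and 0 below: Prrx1, and Col1a1 and Dcn, which the matrix count above holds too. Leaving out single arrays gave 3 to 5 above, against 3.00% to 8.38% of all genes. The count was 5 without 3d replicate 3 (38.5% against 3.87%) or untreated replicate 4 (41.7% against 3.00%). The median difference of the list took the other sign in 3 of 20 alternatives: the deposited sign kept, no centring, and without 3d replicate 3. Without 3d replicate 2, 1 marker lay below (8.33% against 5.15%). Prrx1, a homeobox factor of mesenchymal cells, was at 0.19, 0.16, 1.06 and 1.17, against -0.19, -0.16 and -0.10 (difference 0.81, SE 0.18, limma adjusted p 0.131). Vim, vimentin, was at -1.19 and -1.42 on the Cy5 arrays and at 0.06 and 0.25 on the Cy3 arrays, so its orientations disagreed. In bulk RNA, fewer cells of a type and less RNA per cell cannot be told apart. Ratios give no level, so markers at or near 0 could not be identified. The lists of liver, muscle and heart, blood and immune, epithelial and kidney, endothelial, adipocyte and brain markers held 6 to 13 tested genes each; 0 passed and 0 of those with values on the 4 arrays lay outside the untreated range; their part in the results above was not tested.

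The cytosolic ribosomal proteins lay on the lower side against the untreated arrays, with a large dye difference. Of 80 listed genes 57 were named and 56 tested; 1, Rpl13a, fell and 0 rose, and the median difference was -0.43, against -0.01 over all genes. The medians at 3 days were -0.57 and -0.61 on the Cy5 arrays and 0.02 and -0.02 on the turned Cy3 arrays. The untreated medians were -0.01 on the Cy5 array and 0.31 and 0.23 on the Cy3 arrays, so on the Cy3 arrays the 3-day medians were near 0 and the untreated ones above it. The median difference stayed below 0 under all 20 alternatives run, from -0.65 to -0.21. Of 54 genes with values on the 4 arrays, 9 lay below the untreated range and 1 above, or 16.7% below against 2.2% of all genes. Leaving out any array of 3 days or untreated left 9 to 20 below and 1 to 3 above, against 3.32% to 7.09% of all genes below.

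Beside Rpl13a, the members below the untreated range were Rpl7a, Rpl8, Rpl9, Rplp0, Rps6, Rps20, Rps28 and Rps29, named after their values were seen. Rps28 was the most even of them, at -0.58, -0.66, -0.53 and -0.52, against -0.11 to 0.61 (difference -0.79, limma adjusted p 0.404). Rpl8 was at -0.88, -0.57, -0.76 and -0.58, against -0.14 to 0.15 (difference -0.76, adjusted p 0.471). Rpl9 was at -0.54, -0.60, -0.33 and -0.57, against 0.26 and 0.09 on the 2 untreated arrays with a value (difference -0.68, adjusted p 0.423). Rps20 was at -0.74, -0.78, -0.60 and -0.23, against 0.01 to 0.53 (difference -0.81, adjusted p 0.461). These 4 were below 0 on each array of 3 days, whereas Rps6 reached 0.07 on one of them. Rpl26 went the other way, at 0.58, 0.77, 0.70 and 0.48, against -0.01 to 0.42 (difference 0.44, adjusted p 0.369). Ribosomal protein genes have many near-identical processed pseudogenes, and cDNA probes may not separate them.

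Translation factors showed the same dye difference. Of 28 tested, 0 passed, the median difference was -0.26, and 3 of 28 lay below the untreated range and 0 above (10.7% against 2.2% of all genes). Without 3d replicate 1 it was 5 below (17.9% against 4.7%) and 2 above (7.14% against 4.42%). Without untreated replicate 1 it was 8 below (28.6% against 7.09%) and 2 above (7.14% against 8.38%). The median stayed below 0 under the 20 alternatives. The medians at 3 days were -0.34 and -0.40 on the Cy5 arrays and 0.12 and 0.18 on the Cy3 arrays. Tpt1, a translationally controlled growth-linked protein, was at -0.25, -0.60, -0.07 and -0.46, against 0.02 to 0.31 (difference -0.50, limma adjusted p 0.384). Eif3c and Eef1d, subunits of an initiation and an elongation factor, differed by -0.61 and -0.40 (adjusted p 0.394 and 0.471). Eef1b2 was at -1.30 and -1.13 on the Cy5 arrays but at -0.02 and 0.15 on the Cy3 arrays.

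Of 22 heat shock proteins and chaperonins tested, 0 passed, the median difference was -0.25 (0.07 with the deposited sign kept), and 3 of 21 lay below the untreated range (14.3% against 2.2% of all genes) and 0 above: Cct5, Hspd1 and Hspa9. The count below was 5 without 3d replicate 3 (23.8% against 4.9% of all genes), and 8 without untreated replicate 1 (38.1% against 7.09%). Without 3d replicate 4, 4 lay below (18.2% against 4.48%) and 2 above (9.09% against 4.11%). Hspd1, the mitochondrial chaperonin, was at -0.53, -0.29, -0.26 and -0.72, against -0.08 to 0.54 (difference -0.58, limma adjusted p 0.41). Hspa9, the mitochondrial Hsp70, was at -1.51, -1.30, -0.38 and -0.19 (difference -1.19, adjusted p 0.681). Of 21 tested genes of the unfolded protein response, 0 passed, the median difference was -0.04, and 2 lay above and 2 below the untreated range (9.52% each, against 1.99% and 2.2% of all genes). Hsp90b1, the Hsp90 of the endoplasmic reticulum, was at 0.45, 0.55, 1.17 and 0.75, against -0.13 to 0.34 (difference 0.63, adjusted p 0.347), and P4hb, a disulfide isomerase that also serves collagen hydroxylation, was at 0.67, 0.88, 1.30 and 1.49, against -0.21 to 0.21 (difference 1.15, adjusted p 0.798). Both were above 0 on the 4 arrays but neither passed. The 2 below, which did not pass either, were Psat1 and Asns, enzymes of serine and asparagine synthesis: Psat1 was at -1.16, -0.98, -2.05 and -0.98 (difference -1.40, adjusted p 0.386) and Asns at -0.54, -0.47, -0.77 and -2.53 (difference -1.10, adjusted p 0.90).

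**Figure D4:**
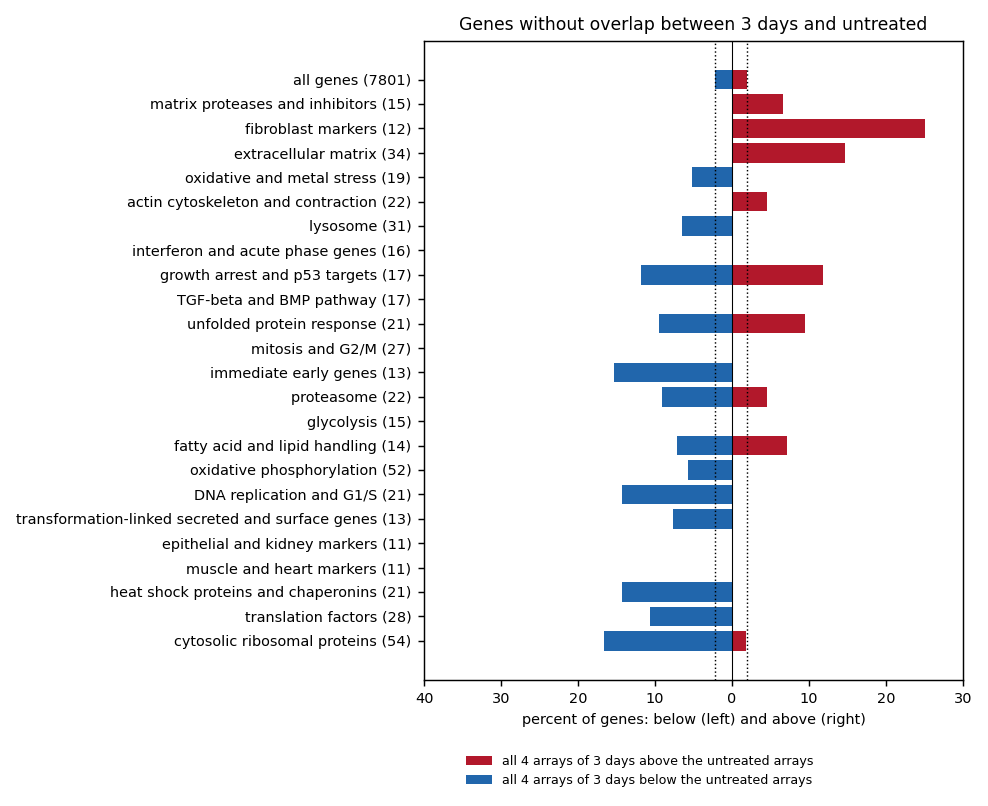
Share of genes whose 4 arrays of 3 days all lay above (red, right) or below (blue, left) the 3 untreated arrays, for lists with at least 10 genes measured on the 4 arrays (number in brackets); dotted lines mark the shares over all genes, 1.99% above and 2.2% below. Extracellular matrix (14.7%) and fibroblast markers (3 of 12) stand out on the right and cytosolic ribosomal proteins (16.7%) on the left; several lists rest on 1 to 3 genes.

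Genes of DNA replication and the G1/S transition mark proliferating cells. Of 24 tested, 0 passed, the median difference was -0.16, and 3 of 21 lay below the untreated range (14.3% against 2.2% of all genes) and 0 above. The count below was 5 without 3d replicate 2 (23.8% against 5.15% of all genes), and 5 without untreated replicate 1 (23.8% against 7.09%). In the fits of ranges without 3d replicate 3, untreated replicate 1 or untreated replicate 3, 1 gene lay above (4.76% against 3.31% to 8.38%). Pcna, the sliding clamp of DNA polymerase, was at -0.38, -0.35, -1.08 and -0.54, against -0.12, 0.40 and 0.36 (difference -0.72, limma adjusted p 0.396). Uhrf1, which helps copy DNA methylation, was at -0.43, -0.32, -1.36 and -0.81, against -0.13 to 0.44 (difference -0.85, adjusted p 0.569). Pold1, a subunit of DNA polymerase delta, ran from -0.70 to -0.33 (difference -0.50, adjusted p 0.817). All 3 were below 0 on each array of 3 days; with the deposited sign kept, the list's median was 0.23. Of 30 genes of mitosis and G2/M tested, 0 passed, the median difference was -0.08 and 0 of 27 lay outside the untreated range; Smc4, a condensin subunit, differed by -0.67 (adjusted p 0.347). Of 20 growth arrest and p53 target genes tested, 1, Gas1, rose and 0 fell, and the median difference was -0.02. Of 17 members of the same list with values on the 4 arrays, Gas1 and Prrx1 lay above the untreated range (11.8% against 1.99% of all genes). Gas6 and Ccng1 lay below it (11.8% against 2.2%, limma adjusted p 0.831 and 0.411).

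Of 15 immediate early genes tested against untreated, Egr1 included, 0 passed, and the median difference was -0.08. Ccn1, a matricellular protein induced by serum, was at -0.61, -0.39, -1.35 and -1.85, against 0.18, -0.10 and -0.31 (difference -1.04, limma adjusted p 0.347), and at -1.19 to -0.68 at 24 h. Ier2 was at -0.44, 0.03, -1.25 and -0.72, overlapping the untreated arrays (difference -0.55, adjusted p 0.402). Egr1 and Ccn1 were the 2 of 13 genes below the untreated range (15.4% against 2.2% of all genes); 0 were above. Of 7 tested ERK targets and feedback inhibitors, 0 passed and 0 lay outside the untreated range, and their median difference was -0.23. It split by dye, at -0.27 on the Cy5 arrays and 0.22 on the Cy3 arrays. In 2 of 20 alternatives it took the other sign: only the Cy3 arrays, and without untreated replicate 1. Spry2, an inhibitor of receptor signalling to ERK, was at -0.04, -1.04, 0.33 and 0.05.

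No gene of the metabolic lists in this paragraph passed against untreated. Of 7 cholesterol synthesis genes tested, 0 passed and the median difference was -0.45 (0.24 with the deposited sign kept). Hmgcs1, which makes HMG-CoA, was at -1.18, -1.42, -0.02 and -0.93, against 0.02 to 0.28 (difference -0.99, limma adjusted p 0.423). Mvk, mevalonate kinase, was at -1.36, -1.84, -1.09 and -2.81, against 0.04 to 0.33 (difference -1.90, adjusted p 0.509). These were 2 of only 4 members measured on the 4 arrays (50% below the untreated range, against 2.2% of all genes). Of 16 genes of fatty acid and lipid handling, Plin2, which coats lipid droplets, ran from -0.43 to 0.09, against 0.19 to 0.60 (adjusted p 0.358), and Ppard, a nuclear receptor for fatty acids, from 0.46 to 0.94, against -0.45 to 0.19 (adjusted p 0.59). Of 14 members measured on the 4 arrays, 1 thus lay below and 1 above the untreated range (7.14% each, against 2.2% and 1.99% of all genes). Of 55 oxidative phosphorylation genes tested, 0 passed, the median difference was -0.16, and Atp5g3, Ndufa6 and Ndufs4 were the 3 of 52 below the untreated range (5.77% against 2.2%). The count was 6 without 3d replicate 3 or untreated replicate 3 and 7 without 3d replicate 1, 3d replicate 4 or untreated replicate 1. These were 11.5% to 13.5% of the list, against 3.42% to 7.09% of all genes. Atp5g3, of the ATP synthase ring, was at -0.80, -0.87, -0.51 and -1.25, against a lowest untreated value of -0.50 (adjusted p 0.308). Of 18 glycolysis genes 0 passed and 0 of 15 lay outside the untreated range.

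Proteasome genes gave 0 calls among 27 tested, with Psmc2 and Psmc4 below and Psmc3 above the untreated range of 22 measured on the 4 arrays. These shares were 9.09% below and 4.55% above, against 2.2% and 1.99% of all genes. Lysosomal genes gave 0 calls among 34. The transformation-linked secreted and surface genes gave 0 calls among 13 against untreated and split by dye: the median difference was -0.82 on the Cy5 arrays and 0.15 on the Cy3 arrays. S100a6, a calcium-binding protein, was at -1.51 and -1.02 on the Cy5 arrays and at 0.07 and 0.36 on the Cy3 arrays (difference -0.82, limma adjusted p 0.457). Tm4sf1, a tetraspanin-like surface protein, was at -1.35 and -1.48 and at 0.30 and 0.81 (difference -0.48, adjusted p 0.716). For S100a4, S100a6 and Tm4sf1 the deposited ratio was below 0 on the 4 arrays.

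Of 8 tested genes often used as references, 1, Rpl13a, fell and 7 did not pass (limma adjusted p 0.402 to 0.996). Ppia and Rplp0 also lay below the untreated range and Actb above it. That made 3 of 8 below (37.5% against 2.2% of all genes) and 1 of 8 above (12.5% against 1.99%). Actb, cytoplasmic actin, was at 0.17, 0.10, 0.19 and 0.25, against -0.13 to -0.06 (difference 0.27, limma adjusted p 0.815), but these are means of 2 opposed probes: one read -0.11, -0.29, 0.83 and 0.94 and the other 0.46, 0.50, -0.44 and -0.44. Gapdh, averaged over 3 probes that disagreed, differed by -0.13 (SE 0.91, adjusted p 0.994).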

How the data were processed

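RNA was hybridised to 2-colour cDNA arrays. The authors deposited log2 ratios between channels, per the labels; numerator, background correction, normalization, software and genome build are not given in the sources used here. Values above 12 (141 to 167 per array of 3 days, reaching 16.85) were dropped, each array was centred on its median, and the sign of the Cy3 arrays (replicates 3 and 4) was turned. Of 20355 probes, 14030 had 1 gene, 5 several and 6320 none in GEO's platform annotation; 13994 matched RefSeq by Entrez ID, and probes of a gene were averaged (9930 genes). limma 3.58.1 in R 4.3.3 was fitted to 27 distinct arrays (untreated, 1 h to 24 h and 3 days) with a mean per group and dye, array weights by group and eBayes; the groups' means over both dyes were compared, with Benjamini-Hochberg adjustment and a threshold of 0.05. A gene needed 3 of 4 values in each treated group and both dyes in each compared group. The arrays of 5 and 7 days were not used. The steps were tested on simulated data. Arrays carry no read depth; their number limits the precision.

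For 3 days versus untreated, the rule named up to 12 genes in each direction among those that passed with the 4 arrays on 1 side of the untreated mean, filled up by the largest moderated statistic, then the members that passed or up to 3 per list, and the genes that passed in the other comparisons; not all are printed. Genes outside it are said to be named after their values were seen. The members, lists and rules were chosen with earlier results of these data known. Alternatives were the dye term, array weights, turning, centring, scaling, the ceiling, the filter, probes as features, single dyes, a replicate block, single arrays left out and, added after seeing the data, a running median over 49 table rows. Fits without untreated replicate 1 used a common dye effect, and the other fits with 1 array left out kept a mean per group and dye. A common dye effect was also used in the fits with only the arrays compared.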

Additional observations from a re-analysis of the deposited data

Results flagged for a closer look

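Of 74 genes named with values on the 4 arrays of 3 days, 3 had 1 array far from the other 3; chance flags about 1 in 20 such groups. Esd was at -1.56 on 3d replicate 4 and at -0.74 to -0.69 on the others. Psat1 was at -2.05 on 3d replicate 3, against -1.16 to -0.98. Asns was at -2.53 on 3d replicate 4, against -0.77 to -0.47.

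The difference between 3 days and 24 h of tetracycline was itself tested, and 10 genes passed in limma (adjusted p 0.0167 to 0.0356). The differences were 1.84 for Adamts1, 1.68 for Dcn, 1.86 for Egr1, 0.99 for Lox and 1.89 for Zfp609, and -1.88 for Fabp5, -1.12 for Kpna2, -1.03 for Ppia, -1.34 for S100a4 and -1.30 for Txn1.

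Probes that the annotation pairs with no single gene were left out of the comparisons of named genes. With each probe a feature, 1 of 5448 such probes passed against untreated, 9 of 5404 against 24 h and 11 of 5560 against the reference channel. Over all probes, 11 of 17526, 28 of 17414 and 20 of 17897 passed, in the same order.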

How the results depend on the processing

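The numbers of genes called depended on nearly every choice tried. Against untreated and 24 h, the fits with only the arrays compared also used a common dye effect. The loss of the other arrays and the change of model cannot be told apart there. Against untreated the count of 10 became 0 with a common dye effect, with only the arrays compared and without centring, 308 without array weights, 433 without turning, 48 with equal median absolute deviation (22 higher, 26 lower), 61 with quantile normalization (42 higher, 19 lower), 37 with values above 12 kept (16 higher, 21 lower), 1 with values on every array, 23 on the Cy5 and 4 on the Cy3 arrays; at an unadjusted p under 0.05 the 3 settings with 0 had 322, 361 and 583. Against 24 h the count of 10 became 0 with a common dye effect, only the arrays compared, no centring and either dye alone, 332 without array weights, 30 without turning, 38 with either scaling, 26 with values above 12 kept and 28 by probe; the 5 settings with 0 had 354 to 1009 at an unadjusted p under 0.05. Against the reference channel the count of 4 became 0 with a common dye effect, only the arrays compared and either dye alone, 1253 without array weights, 330 without turning, 1 without centring or with the running median, 2 with equal median absolute deviation, 22 with quantile normalization, 16 with values above 12 kept and 20 by probe; the 4 settings with 0 had 353 to 1247. Leaving out single arrays gave 2 to 171 against untreated, 0 to 229 against 24 h and 5 to 276 against the reference channel. With a replicate block in place of the dye terms the count was 0 in each comparison (303, 372 and 360 at an unadjusted limma p under 0.05). Deviations of same-numbered arrays of 3 days and untreated correlated at 0.056 to 0.061, and of differently numbered ones at -0.102 to 0.101. For 3 days and 24 h these were 0.013 to 0.054 and -0.065 to 0.051. The replicate number also sets the dye, so these correlations cannot show whether the numbers pair samples. The cause of the moves in the counts was not tested.

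Without turning, among values past the threshold with or without it, the sign reversed for Zfp609 (-3.86 against untreated, -1.12 against 24 h, -1.11 against the reference channel), Asic1 (-1.41), Rpl13a (0.20), Prox2 (1.58 against untreated, 2.28 against the reference channel), Smc4 (0.84), Adamts1 (-0.28), Dcn (-0.40), Fabp5 (0.61), Lox (-0.18), Gas1 (-0.04 against the reference channel) and Egr1 (0.23 against the reference channel). Of 66 other genes followed against untreated, 36 took the other sign without turning, Smc4 among them. On the Cy5 arrays alone the called Zfp609 (-1.92), Asic1 (-0.12) and Prox2 (0.22 against the reference channel) reversed, as did 5 of those 66. Gas1 kept its sign against untreated under 20 alternatives (0.13 to 1.12) and passed in 7 (adjusted p 0.000557 to 0.999); Rpl13a kept it in 19 and passed in 10 (adjusted p 0.000557 to 0.948).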

Other observations

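The acute phase, interferon, TGF-beta and BMP lists showed no shared direction. Of 22 interferon and acute phase genes and 19 genes of the TGF-beta and BMP pathway, 0 passed in limma against untreated, the median differences were -0.01 and -0.03, and 0 of 16 and 0 of 17 genes measured on the 4 arrays lay outside the untreated range. Of 19 genes of oxidative and metal stress, Txn1 was the 1 gene below the untreated range (5.26% against 2.2% of all genes) and 0 passed.

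Neighbouring rows of the deposited table resembled each other a little on the 3-day arrays, with Spearman correlations of a probe with the next row of 0.07, 0.13, 0.15 and 0.14, against 0.00 to 0.03 at 24 h and 0.18 to 0.26 on the untreated arrays. These are descriptions across probes. With a running median over 49 rows subtracted, 9 genes passed against untreated.

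With the deposited sign kept on all arrays, the called genes with the largest positive statistic against untreated were Cetn3, a centrosomal calcium-binding protein, and Kirrel2. Cetn3 was at 0.57, 0.85, 1.13 and 1.38 on the arrays of 3 days and at -0.33, -0.93 and -0.86 on the untreated arrays, a difference of 1.60 (limma adjusted p 0.000598). Both were named after their values were seen. If the deposited ratio is Cy5 over Cy3, the sign in that reading follows the dye, not the channel. If it is channel 1 over channel 2, the sign follows the channel.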
